A study of Mus musculus with 5 samples.

Results

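The genes described here build and modify the extracellular matrix of vessels: collagens, basement membrane proteins, elastic fibre proteins, the enzymes that hydroxylate and cross-link collagen and elastin, and a few matricellular proteins and small proteoglycans. They are a named list of 49 genes, chosen with earlier results of these data known and matched by symbol in the deposited tables. All 49 were found among the 49315 genes of the count table, and all 49 passed the filter on low counts that left 18727 genes for testing. By role the list holds 17 basement membrane genes, 5 fibrillar collagens, 4 other interstitial collagens, 8 elastic fibre genes, 8 collagen-modifying enzymes and 7 matricellular proteins or small proteoglycans. Poly(A) RNA-seq was made from lung endothelial cell isolates of wild-type mice (WT, 3 libraries) and of mice whose endothelium lacks TET2, an enzyme that oxidises 5-methylcytosine in DNA (TET2KO, 2 libraries). Animals of both genotypes had received angiotensin II by chronic infusion for 28 days, so no group without the hormone was measured. The labels name neither the Cre driver nor the deleted exons, the age of the mice or the way the cells were isolated. They also do not say whether each library came from its own animal, so the p-values measure the spread between these libraries, which may be technical in part.

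A basement membrane is a thin sheet on which endothelial cells sit. Its backbone is a network of collagen IV, made of chains paired as alpha-1 with alpha-2 or as alpha-3, alpha-4 and alpha-5, and a network of laminins, each with an alpha, a beta and a gamma chain. Nidogens and the heparan sulphate proteoglycan perlecan tie the networks together. Fibrillar collagens give tensile strength to the surrounding stroma, mainly from fibroblasts. Elastic fibres, an elastin core on fibrillin microfibrils, let arteries and alveoli recoil. Lysyl hydroxylases and prolyl 4-hydroxylases modify collagen chains inside the cell, and lysyl oxidases cross-link collagen and elastin outside it. In lung capillaries the endothelial and alveolar epithelial basement membranes are fused, and alveolar type 1 cells are a known source of the collagen alpha-3 and alpha-4 chains.

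Total counts per library ran from 27346804 to 35440257. Tet2 itself was at 141, 174 and 131 CPM (counts relative to the library total, which was scaled by the TMM method) in WT replicates 1 to 3 and at 139 and 162 CPM in TET2KO replicates 1 and 2. That count covers the whole gene and does not check the genotype labels. Genes of endothelium were present in every library, and so were those of other cell types. The 20 endothelium markers took between 0.424% and 0.816% of counts in WT and between 1.11% and 1.13% in TET2KO. The 11 macrophage markers found took 3.11% in WT replicate 2 and between 0.332% and 0.9995% in the other 4 libraries. The deposited comparison table names no groups. Its log2 fold changes came within 0.05 of the ratio of TET2KO replicates 1 and 2 together with WT replicate 3 over WT replicates 1 and 2 for 99.99% of its 18019 genes, and of the ratio of the labelled groups for 13.9%. In log2 CPM over genes, WT replicate 3 had a Pearson r of 0.987 with TET2KO replicate 1 and 0.9705 with TET2KO replicate 2. With WT replicates 1 and 2 it was 0.981 and 0.944, and between the TET2KO libraries r was 0.983. Whether the label of WT replicate 3 or the grouping of that table is in error cannot be told from these files, and every fold change here rests on that label. All comparisons here use the labelled groups, and values without WT replicate 3 are given where they differ in sign.

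Some of these genes sit in pairs that share a start region, and their promoter windows are shown because the pairs are compared below. Col4a1 (chr8:11198423-11312826, minus strand) and Col4a2 (chr8:11312805-11449287, plus strand; GRCm38, GENCODE M21) are transcribed away from each other, and their annotated 5′ ends overlap by 22 bases. RefSeq windows from 250 bases before to 50 bases after the start (GRCm38.p6) were given for 33 of the 49 genes. In the windows of this pair, chr8:11312777-11313076 on the minus strand and chr8:11312555-11312854 on the plus strand, the 78 bases that both windows contain are in capitals, and they are reverse complements of each other.
Col4a1: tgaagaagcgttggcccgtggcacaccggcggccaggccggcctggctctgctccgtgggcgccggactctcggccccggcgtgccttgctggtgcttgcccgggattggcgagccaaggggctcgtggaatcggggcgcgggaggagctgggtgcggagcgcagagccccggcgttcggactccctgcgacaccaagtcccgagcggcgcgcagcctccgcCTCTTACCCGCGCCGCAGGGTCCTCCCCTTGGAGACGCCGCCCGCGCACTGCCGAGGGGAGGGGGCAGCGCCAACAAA
Col4a2: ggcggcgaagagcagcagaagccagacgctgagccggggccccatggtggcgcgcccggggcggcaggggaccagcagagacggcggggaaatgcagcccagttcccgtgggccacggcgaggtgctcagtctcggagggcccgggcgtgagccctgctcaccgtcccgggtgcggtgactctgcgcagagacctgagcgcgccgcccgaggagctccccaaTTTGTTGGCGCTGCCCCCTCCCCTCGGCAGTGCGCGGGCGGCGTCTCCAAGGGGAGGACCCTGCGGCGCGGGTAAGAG

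Col4a4 (chr1:82448423-82586849, minus strand) and Col4a3 (chr1:82586921-82722059, plus strand) form a second such pair, with 72 bases from one annotated start to the other. The window of Col4a4, chr1:82586800-82587099 on the minus strand, is printed with the 71 bases between both starts in capitals.
Col4a4: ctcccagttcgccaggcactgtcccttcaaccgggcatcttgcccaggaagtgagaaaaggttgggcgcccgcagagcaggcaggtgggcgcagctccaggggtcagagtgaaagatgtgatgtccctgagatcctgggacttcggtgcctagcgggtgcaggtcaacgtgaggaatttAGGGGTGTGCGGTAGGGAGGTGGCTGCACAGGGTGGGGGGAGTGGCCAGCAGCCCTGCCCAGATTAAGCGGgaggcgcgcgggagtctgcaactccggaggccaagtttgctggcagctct

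For contrast, the windows of 2 fibrillar collagen genes are chr6:4505368-4505667 (Col1a2, plus strand) and chr1:45311288-45311587 (Col3a1, plus strand). Capitals mark the letters CCAAT or TATAAA on either strand; the motifs do not overlap each other.
Col1a2: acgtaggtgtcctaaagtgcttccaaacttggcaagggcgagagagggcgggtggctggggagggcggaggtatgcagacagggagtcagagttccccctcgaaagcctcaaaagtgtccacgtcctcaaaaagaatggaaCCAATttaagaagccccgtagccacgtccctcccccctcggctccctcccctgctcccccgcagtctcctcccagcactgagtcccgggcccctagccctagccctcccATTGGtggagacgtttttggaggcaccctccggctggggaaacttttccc
Col3a1: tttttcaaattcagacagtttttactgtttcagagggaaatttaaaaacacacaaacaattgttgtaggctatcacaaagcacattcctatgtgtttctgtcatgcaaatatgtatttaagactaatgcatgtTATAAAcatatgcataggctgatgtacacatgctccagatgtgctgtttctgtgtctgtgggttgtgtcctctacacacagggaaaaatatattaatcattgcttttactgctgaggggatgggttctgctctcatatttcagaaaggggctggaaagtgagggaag

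Col1a2 held 2 matches of CCAAT and Col3a1 held 1 of TATAAA, while Col4a1 and Col4a2 had 1 CCAAT match each and no TATAAA. The GC content was 74.0% in the Col4a1 window, 73.7% in Col4a2, 63.3% in Col4a4, 61.0% in Col1a2 and 37.7% in Col3a1. Over 1 window per gene, GGGCGG (searched on both strands) was in 21 of 33 windows of the listed genes and in 35.9% of 27025 windows of all genes. CCAAT was in 10 of 33 and 37.9%, and TATAAA in 5 of 33 and 14.2%. These matches describe letters and say nothing of which factors bind.

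Most of the 49 genes had higher values in the TET2KO libraries than in WT, but none passed the test. As the 49 were chosen with earlier results of these data known, the counts set beside shares of all genes are descriptive only. In edgeR (quasi-likelihood F test, Benjamini-Hochberg adjustment over all genes tested), 0 of the 49 had an adjusted p under 0.05, as did 0% of all genes tested, and the adjusted p ran from 0.740 to 0.950. At an unadjusted p under 0.05 there were 24 of the 49 higher and 0 lower in TET2KO, against 5.32% higher and 0.539% lower among all genes tested. By DESeq2, 2 of the 49 passed the adjusted threshold, Plod2 and Col4a3, where 0.395% of genes passed. Limma-voom called 0 genes and gave 23 of the 49 an unadjusted p under 0.05, against 1109 of the 18727 genes tested. Without WT replicate 2 edgeR gave 23 of the 49 an unadjusted p under 0.05, against 10.2% of genes, and without WT replicate 3 it gave 20, against 7.63%. The log2 fold change was above 0 for 43 of the 49, against 41.6% of all genes tested (58.5% with unscaled library totals, where 43 of the 49 were above 0 as well). It was above 1 for 10 of the 49, against 3.87%, and the median was 0.73 for the 49 and -0.08 for all genes tested. For 32 of the 49 the lowest TET2KO value exceeded the highest WT value, against 12.4% of all genes tested. For 0 of the 49 did the TET2KO values both lie under the WT range, against 12.4%. In bulk RNA, fewer cells of a type and less RNA per cell cannot be told apart. The endothelium markers had higher levels in TET2KO too, 19 of 20 without overlap and with a median log2 fold change of 0.75. The 8 pan-leukocyte markers were all below 0 (median -0.31), and for 3 of them TET2KO lay under the WT range, against 12.4% of all genes tested. Of the 11 macrophage markers tested, 8 were below 0 and 3 above (median -1.01), where 41.6% of all genes tested were above 0. The part of these cell types in the result was not tested.

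**Figure D1:**
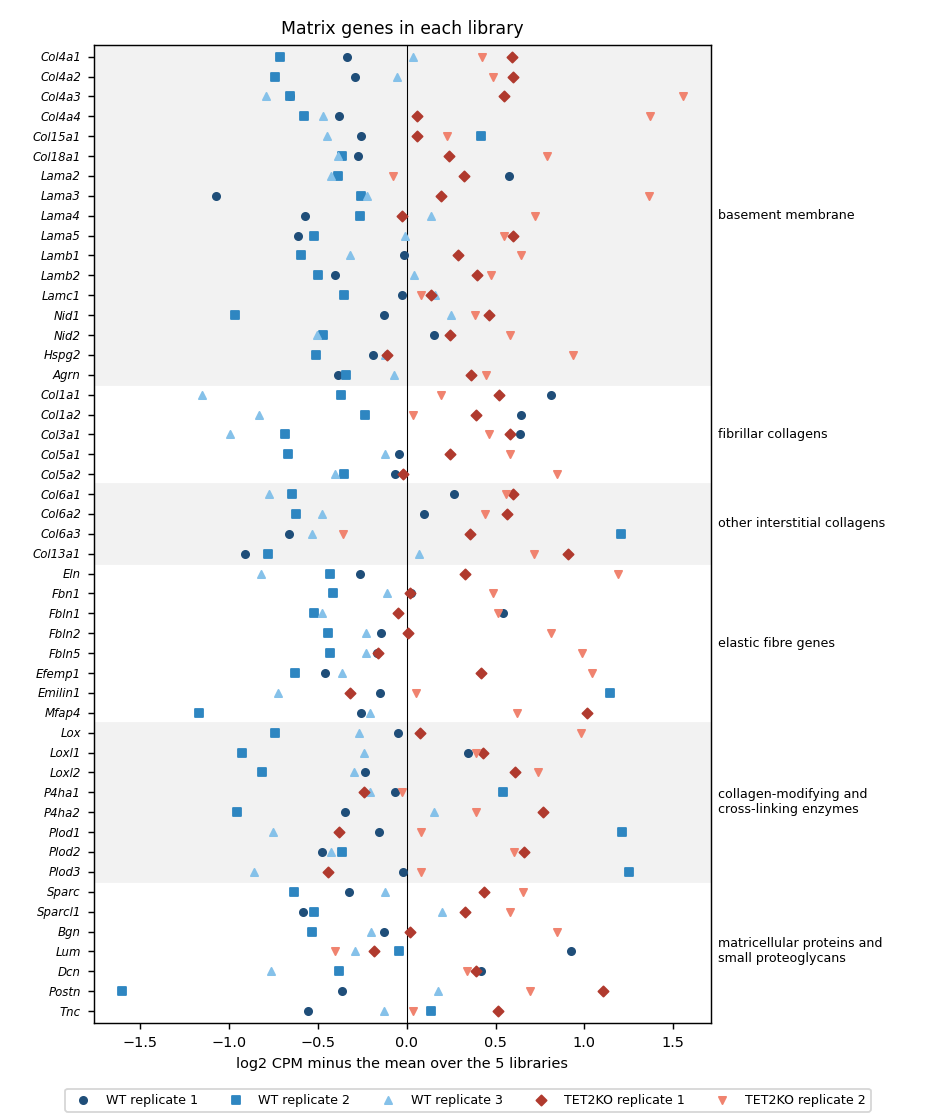
Each row is 1 matrix gene and each point 1 library, placed by its log2 CPM (prior count 2) minus the mean over the 5 libraries; blue symbols are WT and red symbols TET2KO. The red points lie right of all blue ones for 32 genes, and WT replicate 2 is far to the right for Col6a3, Emilin1, Plod1 and Plod3.

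WT replicate 2 held the lowest CPM of 23 of the 49 genes, against 32.9% of all genes tested, and WT replicate 3 that of 15, against 23.8%. TET2KO replicate 2 held the highest CPM of 22, against 16%, and TET2KO replicate 1 that of 13, against 13.1%. In the plot of each gene by library, exceptions to the common order are visible. Lama2, Col1a1, Col1a2, Col3a1, Fbln1, Lum and Dcn were highest in WT replicate 1. Col15a1, Col6a3, Emilin1, P4ha1, Plod1 and Plod3 were highest in WT replicate 2. Within the TET2KO group, 12 of the 49 were over 1.5 times higher in replicate 2 than in replicate 1 (Col4a3, Col4a4, Lama3, Hspg2, Fbln5 and Eln among them), and 1, Col6a3, was lower by as much. The share of all genes that differed so was not computed.

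The collagen IV chains of the common network had the highest mean TPM of the list over the 5 libraries, although Plod3 and Emilin1 were above both in WT replicate 2. Col4a1, the alpha-1 chain, was at 245, 189 and 317 CPM in WT replicates 1 to 3, against 466 and 415 CPM in TET2KO replicates 1 and 2. Its partner Col4a2 was at 184, 135 and 217 CPM in WT, against 342 and 316 CPM in TET2KO. In both genes the TET2KO values lay above the WT range, WT replicate 2 was lowest and WT replicate 3 came closest to TET2KO. The log2 fold change was 0.81 (SE 0.25) for Col4a1 and 0.88 (SE 0.24) for Col4a2, and edgeR's adjusted p was 0.759 and 0.740. Without WT replicate 3 the fold changes were 1.05 and 1.08.

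The chains of the alveolar and glomerular type network were far rarer. Col4a3, the alpha-3 chain, was at 2.00, 1.99 and 1.81 CPM in WT, against 4.68 and 9.49 CPM in TET2KO, from 57 to 59 counts per WT library and 155 and 303 counts in TET2KO. Its log2 fold change of 1.87 (SE 0.36) was the highest of the 49, and the edgeR adjusted p was 0.740. DESeq2 gave it an adjusted p of 0.0101 with a log2 fold change of 1.89. Col4a4, its neighbour, was at 2.87, 2.501 and 2.70 CPM in WT, against 3.93 and 9.83 CPM in TET2KO, a log2 fold change of 1.35 (SE 0.42). The WT libraries were close to each other in both genes, and TET2KO replicate 2 lay far above replicate 1. Alveolar type 1 markers had the same order of groups, with 0.0313% to 0.05002% of counts in WT and 0.0782% and 0.0905% in TET2KO. For 11 of the 12 TET2KO lay above the WT range, against 12.4% of all genes tested. None of the 12 markers was at 0, and their part in the result was not tested.

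The remaining basement membrane collagens are Col18a1, the source of endostatin, and Col15a1. Col18a1 was at 9.95, 9.33 and 9.18 CPM in WT, against 14.2 and 20.9 CPM in TET2KO. The WT values spanned less than 1 CPM and the groups did not overlap (log2 fold change 0.89, SE 0.23; edgeR adjusted p = 0.740). Col15a1 was at 9.60, 15.4 and 8.42 CPM in WT, against 12.0 and 13.5 CPM in TET2KO, so that the groups overlapped (log2 fold change 0.19, SE 0.31). Of the 6 basement membrane collagens, 5 had groups without overlap, against 12.4% of all genes tested with TET2KO above the WT range.

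Laminin chains differed among themselves. Lama5, the alpha-5 chain of mature endothelial and epithelial basement membrane, was at 118, 126 and 179 CPM in WT, against 274 and 264 CPM in TET2KO. Lamb2, the beta-2 chain, was at 53.1, 49.6 and 72.3 CPM in WT, against 92.4 and 97.8 CPM in TET2KO. For both the groups did not overlap and the TET2KO libraries nearly coincided, with log2 fold changes of 0.93 (SE 0.23) and 0.70 (SE 0.21) and an edgeR adjusted p of 0.740 each. Lamc1, the gamma-1 chain that most laminins contain, was at 73.7, 58.6 and 83.8 CPM in WT, against 82.5 and 79.3 CPM in TET2KO. Its groups overlapped, its highest value was in WT replicate 3 and its log2 fold change was 0.17 (SE 0.19).

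The less abundant laminin chains were mixed. Lama4, the alpha-4 chain typical of endothelium, was at 9.01, 11.2 and 14.7 CPM in WT, against 13.2 and 22.2 CPM in TET2KO, with overlap through WT replicate 3 (log2 fold change 0.60, SE 0.32). Lama3, the alpha-3 chain of epithelia, was at 1.72, 3.08 and 3.15 CPM in WT, against 4.23 and 9.58 CPM in TET2KO, without overlap (1.38, SE 0.46 on the log2 scale). Lamb1, the beta-1 chain, stood between 3.75 and 5.64 CPM in WT, against 6.98 and 8.93 CPM in TET2KO (log2 fold change 0.78, SE 0.27). Lama2, the alpha-2 chain of muscle and nerve, had 31 to 60 counts per library and overlapping groups, and its log2 fold change of 0.15 (SE 0.45) was -0.0012 when WT replicate 3 was left out and -0.08 when TET2KO replicate 1 was.

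All 4 genes that link or decorate the networks had TET2KO values above the WT range, against 12.4% of all genes tested. Agrn, the heparan sulphate proteoglycan agrin, was at 68.05, 70.2 and 84.7 CPM in WT, against 115 and 121 CPM in TET2KO, a log2 fold change of 0.67 with the smallest SE of the list, 0.16. Nid1, nidogen-1, was at 61.6, 34.5 and 80.2 CPM in WT, against 93.1 and 87.9 CPM in TET2KO (0.62, SE 0.35). Nid2 ran from 3.37 to 5.36 CPM in WT and was at 5.71 and 7.24 CPM in TET2KO. Hspg2, which encodes perlecan, was at 33.7, 27.0 and 35.3 CPM in WT, against 35.6 and 73.7 CPM in TET2KO. The lack of overlap in Hspg2 rested on a gap of under 1 CPM between WT replicate 3 and TET2KO replicate 1, and the log2 fold change of 0.77 (SE 0.33) was 0.16 without TET2KO replicate 2. Over all 17 basement membrane genes, 17 fold changes were above 0, against 41.6% of all genes tested, and 13 had TET2KO above the WT range, against 12.4%. Their median log2 fold change was 0.77, with a range of 0.59 to 0.90 when 1 library at a time was left out.

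**Figure D2:**
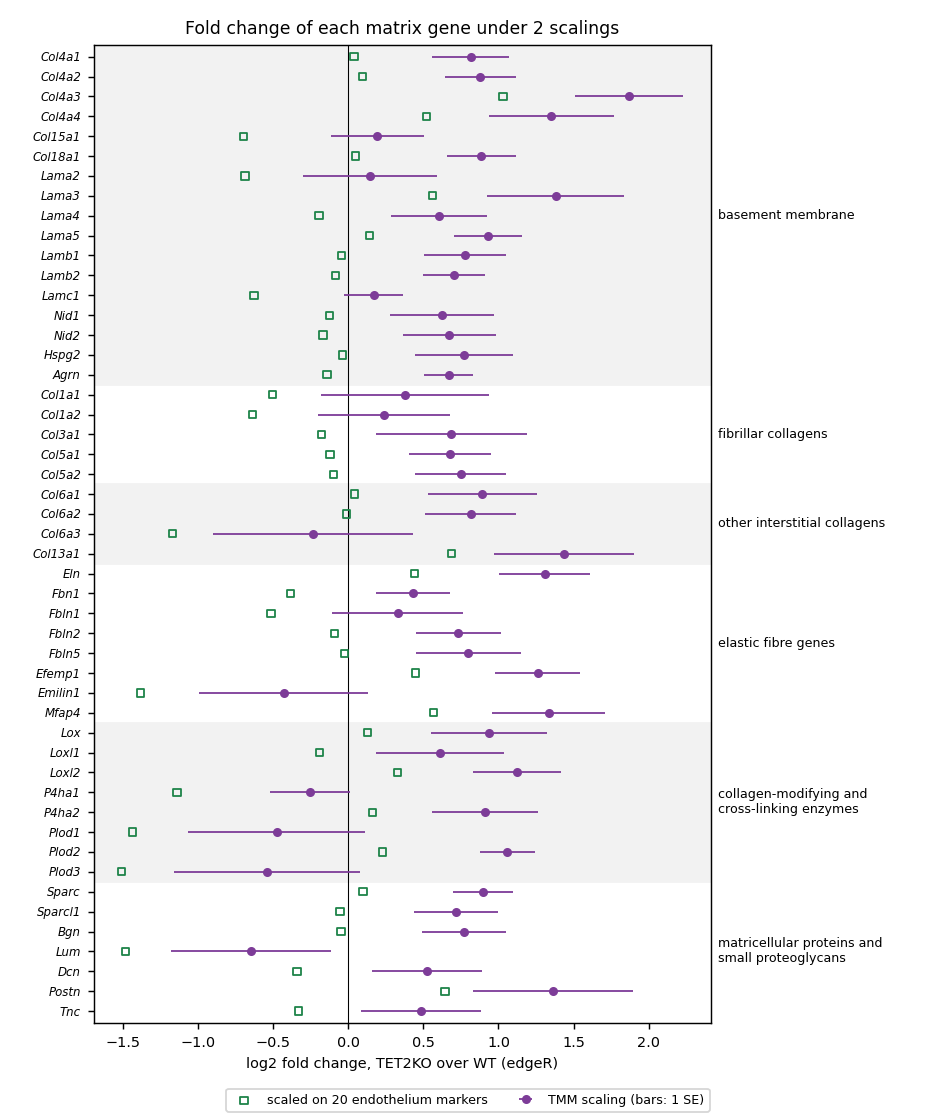
Filled circles are log2 fold changes of TET2KO over WT from edgeR with TMM scaling, with bars of 1 SE, for each of the 49 genes; open squares are the same genes scaled on the 20 endothelium markers. The circles lie right of 0 for 43 genes and the squares for 18.

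The fibrillar collagens followed another order of libraries. Col1a1 and Col1a2, the chains of collagen I, were highest in WT replicate 1 and lowest in WT replicate 3. Col1a1 was at 28.0, 12.3 and 7.12 CPM in WT, against 22.8 and 18.2 CPM in TET2KO, and Col1a2 at 30.7, 16.6 and 10.96 CPM, against 25.7 and 20.1 CPM. The spread within WT was wider than the distance between the groups, with log2 fold changes of 0.38 (SE 0.56) and 0.24 (SE 0.44), and that of Col1a2 was -0.01 without WT replicate 3. Col3a1, the collagen III chain (chr1:45311538-45349706), was at 35.0, 14.0 and 11.2 CPM in WT, against 33.6 and 31.0 CPM in TET2KO (0.69, SE 0.50). WT replicate 1 was again the highest library, so the groups overlapped.

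Collagen V, which nucleates collagen I fibrils, differed from these. Col5a1 was at 8.06, 5.21 and 7.63 CPM in WT, against 9.85 and 12.5 CPM in TET2KO (log2 fold change 0.68, SE 0.27). Col5a2 was at 12.2, 9.97 and 9.66 CPM in WT, against 12.6 and 23.0 CPM in TET2KO (0.75, SE 0.30). Neither gene was highest in WT replicate 1, and the groups did not overlap in either, though TET2KO replicate 1 exceeded WT replicate 1 by little in Col5a2. The median of the 5 fibrillar collagens was 0.68, and 0.44 without WT replicate 3. Their summed share of counts was 0.0119%, 0.00485% and 0.00473% in WT and 0.0111% and 0.0111% in TET2KO. The 15 fibroblast markers, none at 0, held 0.00606%, 0.00307% and 0.00549% in WT and 0.00762% and 0.00908% in TET2KO. Platelet markers were also highest in WT replicate 1 (0.00695%, against 0.00119% to 0.00557% elsewhere). The part of these cells in the collagen values was not tested.

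Collagen VI forms beaded filaments beside basement membranes. Col6a1 was at 9.36, 4.93 and 4.51 CPM in WT, against 11.8 and 11.5 CPM in TET2KO (log2 fold change 0.89, SE 0.36). Col6a2 was at 4.73, 2.84 and 3.15 CPM in WT, against 6.55 and 6.01 CPM in TET2KO (0.82, SE 0.30). Both had groups without overlap. Col6a3, the third chain, was at 2.35, 8.75 and 2.57 CPM in WT, against 4.83 and 2.91 CPM in TET2KO, so it stood apart from its partners through WT replicate 2. Its log2 fold change of -0.23 (SE 0.67) was 0.68 without that library. Col13a1, a transmembrane collagen, had 6, 7 and 15 counts in WT and 30 and 25 counts in TET2KO, or 0.210 to 0.477 CPM and 0.783 to 0.906 CPM (1.43, SE 0.47).

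Among elastic fibre genes the elastin gene had the largest difference in CPM, and Mfap4 the largest log2 fold change. Eln was at 119, 106 and 80.8 CPM in WT, against 179 and 325 CPM in TET2KO, without overlap. The log2 fold change was 1.31 (SE 0.31; edgeR adjusted p = 0.740), and 0.81 without TET2KO replicate 2. Efemp1, the glycoprotein fibulin-3, was at 3.08, 2.74 and 3.31 CPM in WT, against 5.74 and 8.86 CPM in TET2KO (1.26, SE 0.28). Mfap4, a microfibril-associated protein, was at 2.66, 1.39 and 2.76 CPM in WT, against 6.52 and 4.95 CPM in TET2KO (1.34, SE 0.38). In all 3 genes the TET2KO values were clear of the WT range, against 12.4% of all genes tested. Only in Mfap4 was replicate 1 the higher.

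Fbln5 and Fbln2, fibulins of elastic fibres, depended on TET2KO replicate 2, as Hspg2 did above. Without that library the log2 fold change was also low in Lama4 (0.18), Col5a2 (0.25) and Bgn (0.30), but 0.92 in the fibulin Efemp1. Fbln5, which elastin assembly needs, was at 16.2, 13.5 and 15.5 CPM in WT, against 16.2 and 36.1 CPM in TET2KO. TET2KO replicate 1 (16.22 CPM) lay barely above WT replicate 1 (16.15 CPM), so Fbln5 is among the 32 genes without overlap by a very small gap. The log2 fold change of 0.80 (SE 0.35) was 0.11 without TET2KO replicate 2. Fbln2 had the same form, at 12.1, 9.80 and 11.4 CPM in WT, against 13.4 and 23.4 CPM in TET2KO (0.73, and 0.28 without TET2KO replicate 2). Fbn1, the fibrillin-1 of microfibrils, was between 8.62 and 11.7 CPM in WT, against 11.7 and 16.2 CPM in TET2KO, and Fbln1 between 2.40 and 5.08 CPM, against 3.35 and 4.98 CPM. Both had overlapping groups. Emilin1, an elastin interface protein, was at 55.7, 137 and 37.4 CPM in WT, against 49.7 and 64.2 CPM in TET2KO. Its log2 fold change of -0.43 (SE 0.56) was 0.32 without WT replicate 2. The median of the 8 elastic fibre genes was 0.77, with 0.23 when TET2KO replicate 2 was left out and 1.10 when TET2KO replicate 1 was. Airway epithelium markers were also highest in TET2KO replicate 2 (0.139% of counts, against 0.0339% to 0.0575% elsewhere), as were alveolar type 1 markers, and their part was not tested.

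The enzymes split by isoform. Plod2, the lysyl hydroxylase of collagen telopeptides, had the smallest p of the 49. It was at 6.76, 7.34 and 7.02 CPM in WT, against 15.0 and 14.4 CPM in TET2KO, with both groups tight and far apart. The log2 fold change was 1.06 (SE 0.18), from 1.03 to 1.12 when 1 library at a time was left out. The edgeR adjusted p was 0.740, and DESeq2 gave an adjusted p of 0.00514. Plod1 and Plod3, the other lysyl hydroxylases, were highest in WT replicate 2. Plod1 was at 51.5, 133 and 34.1 CPM in WT, against 44.0 and 60.7 CPM in TET2KO, and Plod3 at 128, 311 and 71.8 CPM, against 95.9 and 138 CPM. Their log2 fold changes of -0.48 (SE 0.59) and -0.54 (SE 0.62) were 0.32 and 0.26 without WT replicate 2.

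The catalytic subunits of prolyl 4-hydroxylase differed in the same way. P4ha2 was at 9.92, 6.49 and 14.1 CPM in WT, against 21.6 and 16.6 CPM in TET2KO (0.91, SE 0.35). P4ha1 was at 48.2, 73.6 and 43.8 CPM in WT, against 42.8 and 49.6 CPM in TET2KO, with overlap (-0.26, SE 0.27, and 0.04 without WT replicate 2). Colgalt1, a collagen galactosyltransferase outside the list, was also highest in WT replicate 2, at 211, 434 and 144 CPM in WT, against 141 and 186 CPM in TET2KO. WT replicate 2 is the library with 3.11% of counts in macrophage markers. Lyz2 (lysozyme) was at 18223 CPM there, against 1762 to 5259 CPM elsewhere. The list was split, as 3 of its 11 tested genes had TET2KO values above the WT range, against 12.4% of all genes tested. Pan-leukocyte markers held 0.766% of counts in WT replicate 2, the lowest share in WT. The part of macrophages in the values of Plod1, Plod3, P4ha1, Emilin1 and Col6a3 was not tested.

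The lysyl oxidases were rare transcripts. Lox was at 3.15, 1.93 and 2.70 CPM in WT, against 3.44 and 6.51 CPM in TET2KO (log2 fold change 0.94, SE 0.39). Loxl2, which acts on collagen IV, was at 2.45, 1.62 and 2.35 CPM in WT, against 4.47 and 4.89 CPM in TET2KO (1.13, SE 0.29). Loxl1, which acts on elastin, was at 2.70, 1.08 and 1.78 CPM in WT, against 2.87 and 2.79 CPM in TET2KO (0.61, SE 0.43). TET2KO lay above the WT range in these 3 genes, against 12.4% of all genes tested, by a wide gap in Loxl2 and barely in Loxl1. Of the 8 enzymes, 5 had a fold change above 0 and 3 below, and the median of 0.76 was 0.52 without TET2KO replicate 2.

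Sparc and Sparcl1 encode calcium-binding matricellular proteins that endothelium makes in quantity. Sparc was at 77.6, 62.6 and 89.2 CPM in WT, against 131 and 153 CPM in TET2KO (log2 fold change 0.90, SE 0.20; edgeR adjusted p = 0.740). Sparcl1 was at 59.8, 62.5 and 103 CPM in WT, against 113 and 134 CPM in TET2KO (0.72, SE 0.28). WT replicate 3 was the highest of WT in both genes, and in Sparcl1 it lay nearer to TET2KO than to WT. Postn, the fibroblast product periostin, was at 1.93, 0.777 and 2.83 CPM in WT, against 5.44 and 4.07 CPM in TET2KO (1.36, SE 0.53). Tnc, tenascin-C, had only 13 to 34 counts per library and overlapping groups (0.49, SE 0.40).

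The small proteoglycans differed in pattern. Bgn, biglycan, was at 48.5, 36.6 and 46.1 CPM in WT, against 53.8 and 95.3 CPM in TET2KO (0.77, SE 0.28). Dcn, the fibroblast proteoglycan decorin, was at 16.7, 9.60 and 7.34 CPM in WT, against 16.4 and 15.8 CPM in TET2KO, with the order of libraries seen in collagen I (0.52, SE 0.37). Lum, lumican, lies beside Dcn on chromosome 10 and had 13 to 32 counts per library. It was at 1.12, 0.541 and 0.445 CPM in WT, against 0.483 and 0.407 CPM in TET2KO, a log2 fold change of -0.65 (SE 0.53). It was the only one of the 49 below 0 in each of the 5 fits that left out a library, while 41 were above 0 in each. Neither count was made over all genes tested.

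Levels of different genes were compared as deposited TPM, which divide counts by gene length and then by the sum of such values in the library. The summed TPM of the 49 genes was 965, 813 and 965 in WT and 1461 and 1659 in TET2KO. Averaged over the 5 libraries, Col4a1 (151 TPM), Col4a2 (125 TPM), Sparcl1 (111 TPM), Plod3 (105 TPM), Sparc (93.9 TPM), Eln (69.3 TPM) and Lama5 (58.3 TPM) were the most abundant. Neighbours in that order overlapped across libraries. Col4a1 and Col4a2 together made up 21.99%, 14.8% and 26.5% of the summed TPM in WT and 28.5% and 22.7% in TET2KO. All basement membrane genes made up 41.6%, 30.3% and 50.6% in WT and 50.5% and 43.3% in TET2KO, so the share overlapped between the groups. Fibrillar collagens made up 1.77% to 4.54% in WT and 2.51% to 2.86% in TET2KO. The modifying enzymes took 35.6% in WT replicate 2 and between 11.7% and 19.0% in the other libraries.

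**Figure D3:**
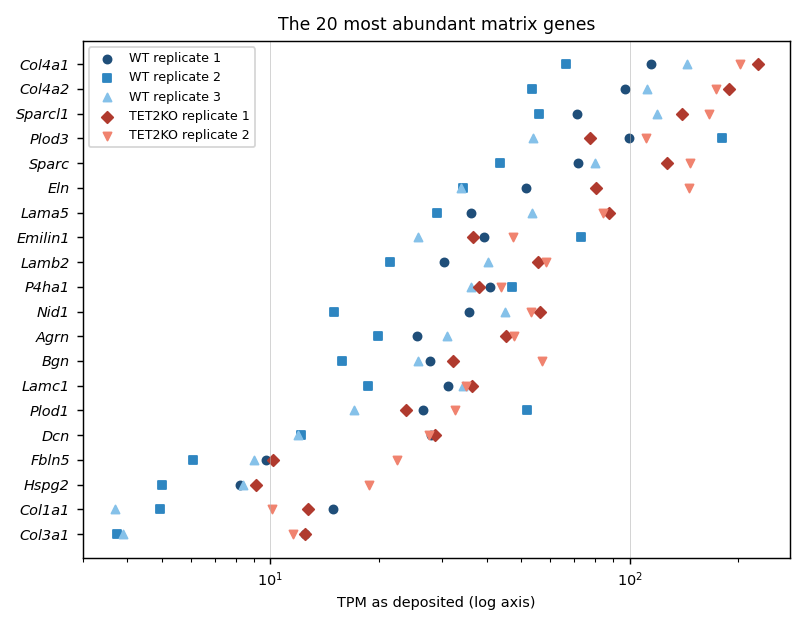
Deposited TPM on a log axis for the 20 genes of the list with the highest mean over the 5 libraries, 1 symbol per library. Col4a1 has the highest mean, with 66.6 to 144 TPM in WT and 203 to 228 TPM in TET2KO, and Plod3 and Emilin1 peak in WT replicate 2.

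Ratios of 2 genes within a library do not depend on how libraries are scaled. The ratio of Col4a1 to Col4a2 in TPM was nearly constant, at 1.18, 1.24 and 1.29 in WT, against 1.21 and 1.16 in TET2KO. That of Col4a3 to Col4a4, the second pair, was 0.740, 0.849 and 0.714 in WT and 1.27 and 1.03 in TET2KO, on counts of 57 to 314. The part of the start regions in the ratios of these pairs was not tested. The ratio of Lama5 to Lamc1 was 1.17, 1.56 and 1.56 in WT and 2.41 and 2.42 in TET2KO. The ratio of Lamb2 to Lamc1 was 0.980, 1.152 and 1.17 in WT and 1.52 and 1.68 in TET2KO. Relative to the gamma-1 chain, then, both partner chains had higher ratios in TET2KO, without overlap. No test was made of these ratios, which were chosen after the values of the genes were seen.

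Other ratios separated the groups or did not, and of all ratios computed more overlapped than separated. Eln to Fbn1, the core to the microfibril, was 15.2, 18.4 and 11.4 in WT and 23.0 and 30.1 in TET2KO. P4ha2 to P4ha1 was 0.136, 0.0581 and 0.212 in WT and 0.332 and 0.221 in TET2KO, where WT replicate 3 and TET2KO replicate 2 nearly met. Plod2 to Plod1 was 0.165, 0.0692 and 0.259 in WT and 0.426 and 0.298 in TET2KO. Both enzyme ratios were lowest in WT replicate 2. Col1a1 to Col1a2 ran from 1.23 to 1.72 in WT and was 1.68 and 1.71 in TET2KO, with overlap. Col4a1 to Col1a1, a basement membrane to a fibrillar chain, was 7.71, 13.5 and 39.2 in WT and 17.9 and 20.1 in TET2KO, so the groups overlapped and WT itself ranged widely. Overlap was also found for Lama5 to Lama4, Lamb2 to Lamb1, Nid1 to Nid2, Col3a1 to Col1a1 and Col5a1 to Col5a2. The same held for Col6a1 to Col6a2, Col4a3 to Col4a1, Loxl2 to Lox and Sparc to Sparcl1. Plod2 to Plod3 separated the groups. The share of all gene pairs that separate was not computed.

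**Figure D4:**
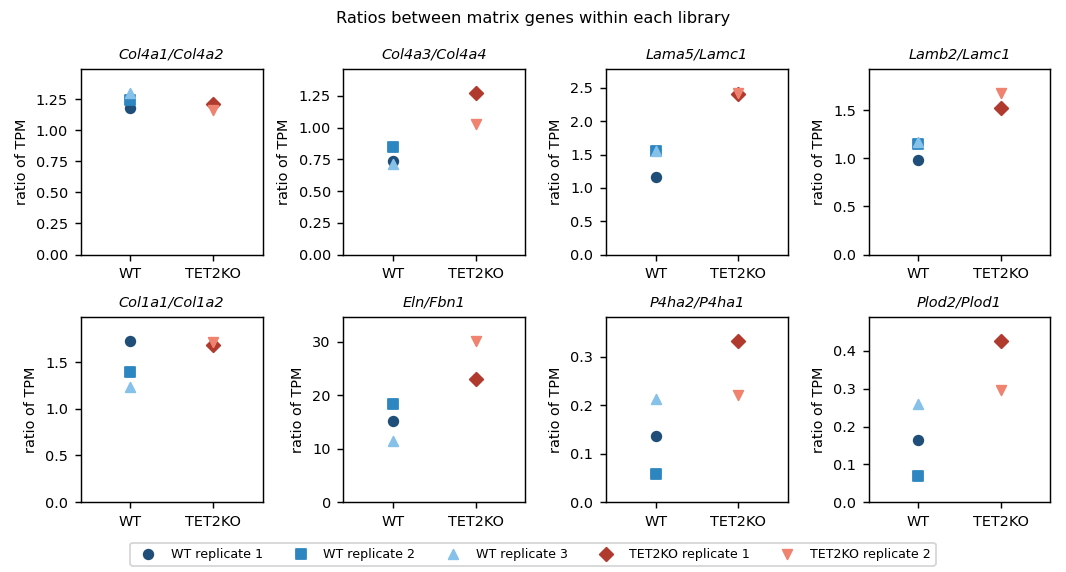
Ratios of deposited TPM between 2 genes, 1 point per library, with axes from 0 and genotype on the horizontal axis. Lama5/Lamc1 and Lamb2/Lamc1 separate WT (up to 1.56 and 1.17) from TET2KO (from 2.41 and 1.52), while Col4a1/Col4a2 stays between 1.16 and 1.29.

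Scaled on the 20 endothelium markers in place of TMM, the median log2 fold change was -0.08 for the 49 genes and -0.89 for all genes tested. On that scale 18 of the 49 were above 0, against 7.42% of all genes tested. The class medians were -0.05 for basement membrane, -0.18 for fibrillar collagens, -0.06 for elastic fibre genes and -0.03 for the enzymes. Col4a1 (0.04), Col4a2 (0.10), Lamb2 (-0.08), Hspg2 (-0.04), Sparc (0.10) and Sparcl1 (-0.06) were near 0 there. Col4a3 (1.03), Col13a1 (0.69), Postn (0.64), Mfap4 (0.56), Lama3 (0.56) and Col4a4 (0.52) were the 6 above 0.5. A further 12 were below -0.5: the 6 that were below 0 with TMM, and Lamc1 (-0.63), Lama2 (-0.69), Col15a1 (-0.70), Col1a2 (-0.64), Fbln1 (-0.52) and Col1a1 (-0.50). Scaled on the fibroblast markers, of which 13 of 15 were tested, 33 of the 49 were above 0, against 13.4% of all genes tested, with Col1a1 at -0.13 and Dcn at -0.02.

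**Figure D5:**
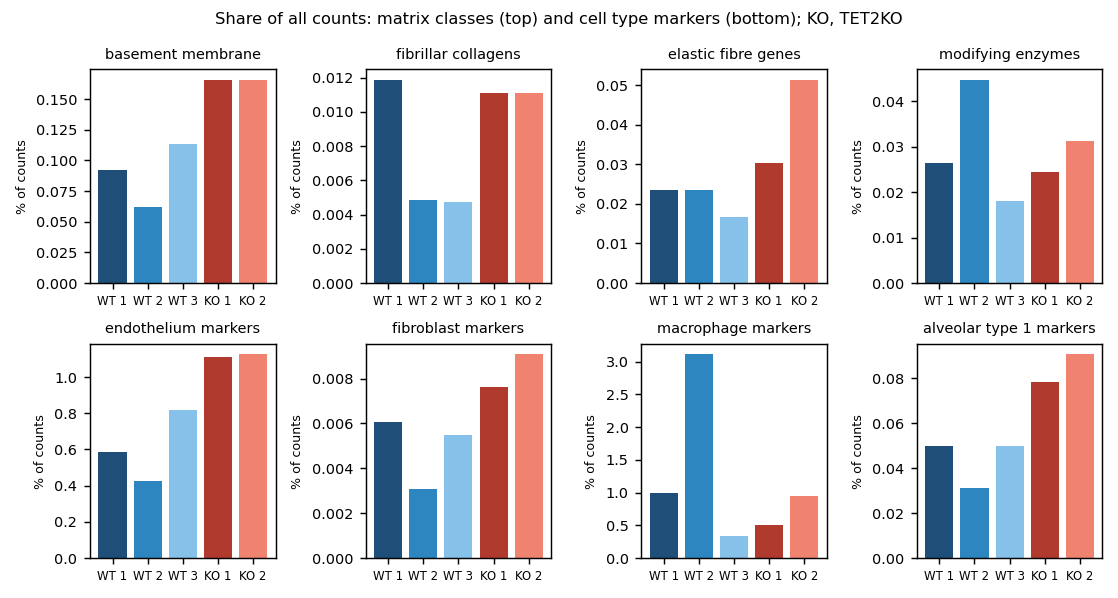
Bars give the percent of all counts per library, from 0, for 4 classes of matrix genes (top row) and 4 lists of cell type markers (bottom row); WT 1 to 3 and KO 1 and 2 are the replicates. Basement membrane genes (0.0618% to 0.114% in WT, 0.166% in both TET2KO libraries) rank the libraries as endothelium markers do, except for the order of the TET2KO libraries, while the enzyme class peaks in WT replicate 2 with the macrophage markers.

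The basement membrane share of counts was 0.0925%, 0.0618% and 0.114% in WT and 0.166% and 0.166% in TET2KO. Endothelium markers gave 0.585%, 0.424% and 0.816% in WT and 1.11% and 1.13% in TET2KO. The WT libraries thus had the same order in both. Pericyte and smooth muscle markers held 0.00189% to 0.00284% in WT and 0.00296% and 0.00297% in TET2KO, with Actg2 at 0 in 1 library. Mesothelium markers held 0.00633% to 0.0359% in WT and 0.0106% and 0.0268% in TET2KO, with Calb2 at 0 in every library. Krt19, a keratin of epithelia and mesothelium, made up most of that share and had its highest CPM in WT replicate 2. By gene, the mesothelium list had a median log2 fold change of 1.68, and for 8 of its 9 tested genes the TET2KO values lay above the WT range, against 12.4% of all genes tested. The part of these cell types in the matrix values was not tested.

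Matrix genes outside the list gave a similar picture. Of 63 such genes, chosen with earlier results of these data known, 56 were tested, and 0 had an edgeR adjusted p under 0.05. At an unadjusted p under 0.05, 18 were higher and 0 lower in TET2KO. The log2 fold change was above 0 for 45 of 56, the median was 0.60, and 26 had groups without overlap, all higher in TET2KO. Among all genes tested, 5.32% were higher at an unadjusted p under 0.05, 41.6% were above 0 and 12.4% had TET2KO above WT without overlap. The largest among those with a mean log2 CPM of at least 1 included Npnt (nephronectin, 1.33, SE 0.40) and Lamc3 (laminin gamma-3, 1.27, SE 0.25). Lamc3 was at 4.20, 3.08 and 4.004 CPM in WT, against 8.13 and 10.1 CPM in TET2KO. The lowest were Adamts2, a procollagen peptidase (-1.003, SE 0.88), Colgalt1 (-0.68, SE 0.49) and Tgfbi (-0.60, SE 0.69), each highest in WT replicate 2.

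In the authors' deposited table, whose contrast sets WT replicate 3 beside TET2KO, 3 of the 49 genes had an adjusted p under 0.05. In the authors' deposited table these were Sparcl1 (log2 fold change 0.95, adjusted p = 0.0105), Lama5 (0.99, adjusted p = 0.0327) and P4ha2 (1.10, adjusted p = 0.0490), and P4ha2 alone was in the shorter list of 217 genes. By the labelled groups edgeR's fold changes were 0.72, 0.93 and 0.91, and 1.04, 1.17 and 1.25 without WT replicate 3. Plod2 (0.80, adjusted p = 0.294) and Col4a3 (1.44, adjusted p = 0.222) did not pass in the authors' deposited table, although DESeq2 called both by the labelled groups. Col1a1 (-0.31), Col1a2 (-0.30), Lama2 (-0.19), Col15a1 (-0.13) and Fbln1 (-0.03) were below 0 there but above 0 by the labelled groups.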

How the data were processed

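RNA from 3 WT and 2 TET2KO lung endothelial isolates was sequenced as paired 150 bp reads, per the labels' protocols. The authors' tools, per the submitters' processing notes, were Trimmomatic 0.36, STAR 2.5.2b, Subread 1.5.2 with its featureCounts, and DESeq2, with build GRCm38. Whether counting used strand is not given in the sources used here. For the 17 of 49 genes whose exons overlap an exon on the other strand (Col4a1 and Col4a2 among them) the strands may therefore be mixed. Read counts per gene and TPM were deposited by the authors. Their deposited comparison holds log2 fold changes, p-values and a normalized signal (counts divided by a size factor); its contrast and the label of WT replicate 3 disagree.

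Counts were tested with edgeR 4.0.16 in R 4.3.3: TMM scaling, filterByExpr, genotype as the only term, quasi-likelihood F test, Benjamini-Hochberg adjustment over 18727 genes, threshold 0.05. SE is the absolute log2 fold change over the root of F. Fold changes are TET2KO over WT. The edgeR and DESeq2 fits were also run on simulated counts with known changes, whose recovery is not given here. Alternatives were DESeq2 1.42.0, limma-voom (limma 3.58.1), the legacy spread, RLE, upper quartile or no scaling factors, scaling on endothelium or fibroblast markers, no filter or 1 CPM in 2 libraries, limma on log2(TPM + 1) or log2(TPM + 0.1), each library left out, and a fit blocked on replicate number. The 49 genes and the marker and matrix lists were chosen with earlier results of these data known. Every listed gene may be named; of the other matrix genes, the 3 highest and 3 lowest fold changes at a mean log2 CPM of at least 1 (1 of them is not reported here), and of the markers, the 2 most abundant per list or any at 0 in every library (Actg2 was named after its values were seen). Siglecf of the macrophage list had no row of that symbol. Locations are from GENCODE M21, promoters from RefSeq.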

Additional observations from a re-analysis of the deposited data

How the results depend on the processing

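Of 879 fold changes of single genes under the alternatives, 830 kept their direction and side of the threshold, 47 changed sign and 2 passed it. No gene changed sign under RLE, upper quartile or no scaling factors, where the median of all genes moved from -0.08 to at most 0.06. DESeq2 called 61 genes, 2 of the 49 among them, Col4a3 (1.89) and Plod2 (1.07). Leaving out 1 library at a time gave 0 calls each, with medians of 0.59 to 0.90 for basement membrane genes, 0.44 to 0.86 for fibrillar collagens, 0.23 to 1.10 for elastic fibre genes and 0.52 to 0.94 for the enzymes. The replicate number shared by a WT and a TET2KO library is only a number in the labels. Deviations from the group means gave an r over genes of 0.22 and 0.49 for same-numbered libraries. WT replicate 3 and TET2KO replicate 1 gave 0.45. With 2 TET2KO libraries these deviations mirror each other, so each r with replicate 2 is the negative of that with replicate 1. The correlations therefore cannot show whether the numbers mark pairs. With the replicate block 0 genes were called, and the medians were 0.84, 0.54, 0.71 and 0.81 in the same order.

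Scaling on endothelium markers moved the median of all genes to -0.89 and gave class medians of -0.0451 (basement membrane), -0.18 (fibrillar), -0.0592 (elastic) and -0.0307 (enzymes). The genes that changed sign there were Col15a1 (-0.70), Lama2 (-0.69), Lama4 (-0.19), Lamb1 (-0.0451), Lamb2 (-0.0842), Lamc1 (-0.63), Nid1 (-0.13), Nid2 (-0.17), Hspg2 (-0.0411), Agrn (-0.14), Col1a1 (-0.50), Col1a2 (-0.64), Col3a1 (-0.18), Col5a1 (-0.12), Col5a2 (-0.10), Col6a2 (-0.0124), Fbn1 (-0.39), Fbln1 (-0.52), Fbln2 (-0.0906), Fbln5 (-0.0278), Loxl1 (-0.19), Sparcl1 (-0.0555), Bgn (-0.0481), Dcn (-0.34) and Tnc (-0.33). Fibroblast marker scaling moved the median of all genes to -0.65 and gave medians of 0.18 (basement membrane), 0.17 (elastic) and 0.23 (enzymes). It changed the sign of Col15a1 (-0.45), Lama2 (-0.37), Lama4 (-0.0081), Lamc1 (-0.39), Col1a1 (-0.13), Col1a2 (-0.29), Fbn1 (-0.14), Fbln1 (-0.21), Dcn (-0.0191) and Tnc (-0.10).

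Leaving out 1 library at a time, values ran from -0.65 to 0.68 for Col6a3, from -0.74 to 0.32 for Emilin1, from -0.37 to 0.0363 for P4ha1, from -0.79 to 0.32 for Plod1 and from -0.89 to 0.26 for Plod3, each highest without WT replicate 2. They ran from -0.0788 (without TET2KO replicate 1) to 0.57 for Lama2, which was at -0.0012 without WT replicate 3, and from -0.0133 (without WT replicate 3) to 0.73 for Col1a2. Col6a3 was at 0.0836 without TET2KO replicate 2. Col6a3 also changed by limma-voom (0.0024), on log2(TPM + 1) (0.0809) and on log2(TPM + 0.1) (0.18). The cause of these changes was not tested. Counting error limits Col13a1, Lum and Tnc, each with under 40 counts per library.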
